A study of Mus musculus with 23 samples.

Results

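The 9 genes described here mark position along the gut. Fabp6, Slc10a2, Fgf15, Slc51a and Slc51b belong to ileal bile acid handling, Cybrd1 and Slc40a1 to duodenal iron uptake, and Muc6 and Tff2 to the mucous Brunner's glands under the duodenal epithelium. They were chosen by name as region markers, with earlier results of these data known, and all 9 were among the 22228 genes with a sequence in every library. The main question was whether the Lgr5_WT and Lgr5_Rptorflfl mouse libraries look like the same stretch of gut. The series has 23 libraries in 7 groups, all of strain C57BL/6. Mouse libraries are ribosome footprints (Ribo-seq) from 3 Lgr5Cre.ERT2.RPL22.HA mice (Lgr5_WT) and from 3 Lgr5_Rptorflfl mice (Lgr5Cre.ERT2.Rptor.fl/fl.RPL22.HA), all 8 to 12 weeks old. In both genotypes the Lgr5 gene, active in intestinal stem cells, drives a tamoxifen-dependent Cre that tags the ribosomal protein RPL22 with HA. In Lgr5_Rptorflfl it also deletes Rptor, which encodes the Raptor subunit of the growth regulator mTORC1. The labels call the mice untreated, while the study's methods give a single tamoxifen injection 24 h before sampling. Small intestines were flushed, frozen and ground with no region named, and tagged ribosomes were pulled down from the lysate.

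The organoids, epithelial cultures grown from small intestinal crypts, carry VillinCre.ERT2, which is active in the whole epithelium. RNA-seq covered WT organoids (VillinCre.ERT2.RPL22.HA, 2 lines with 2 technical libraries each), Rptorflfl organoids (VillinCre.ERT2.Rptor.fl/fl, also 2 lines with 2 technical libraries each) and stem cell enriched (SCe) organoids. The 3 SCe libraries had the WT genotype and were grown with 10 µM CHIR 99021, which activates WNT signalling, and 1.5 mM valproic acid. Ribo-seq covered 3 SCe libraries and 3 libraries labelled VillinCre.ERT2.Rptor.fl/fl.RPL22.HA. The labels call the Rptorflfl organoids untreated as well, and the study describes them as lacking Raptor.

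Bile acids are made in the liver, released into the duodenum and taken back at the far end of the small intestine. In ileal enterocytes Slc10a2 imports them at the brush border, Fabp6 binds them in the cytosol, and the Slc51a and Slc51b proteins together export them towards the blood. Fgf15 is the hormone by which the ileum signals to the liver to slow bile acid synthesis. Iron follows the opposite geography: in the duodenum Cybrd1 reduces ferric iron at the brush border and Slc40a1, ferroportin, exports it. Muc6, a gel-forming mucin, and Tff2, a trefoil peptide, are secreted by Brunner's glands and also by mucous cells of the stomach.

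Mouse libraries held between 772077 and 8238388 estimated counts, with Lgr5_WT mouse 1 the shallowest. Organoid Ribo-seq libraries held 1106178 to 8257457 and RNA-seq libraries 23802944 to 67598878. Levels are given as CPM, the count relative to the TMM-scaled library size, with scaling done separately for mice, organoid RNA and organoid footprints. The targeted gene, Rptor, lay at 39.7 to 44.7 CPM in Lgr5_WT and at 32.6 to 36.9 CPM in Lgr5_Rptorflfl mice. The ranges did not overlap, but the log2 difference of -0.28 had an adjusted p of 0.15 (edgeR quasi-likelihood). In organoid RNA Rptor fell from 51.5 and 47.9 CPM (WT lines 1 and 2) to 14.8 and 15.5 CPM in the Rptorflfl lines (log2 fold change -1.71, adjusted p = 0.00516). In organoid footprints it lay at 16.0 to 18.7 CPM in the libraries labelled Rptorflfl and at 15.2 to 41.9 CPM in SCe, so the ranges overlapped. These counts cover the whole gene, not the deleted part alone. Genes of absorptive enterocytes were abundant in the mouse libraries: the 9 listed ones summed to 49680 to 52850 CPM in Lgr5_WT and to 56530 to 58810 CPM in Lgr5_Rptorflfl. The 8 listed stem cell genes summed to far less, 767 to 810.3 CPM in Lgr5_WT and 808.1, 546.2 and 500.0 CPM in Lgr5_Rptorflfl mice 1, 2 and 3, and 2 of the 8 were called lower. The mouse values are therefore not those of stem cells alone. Of 6 stromal genes 5 were called higher and 0 lower in Lgr5_Rptorflfl (median log2 difference 0.48), of 8 smooth muscle genes 1 and 1, and of 6 immune genes 1 and 1. Among all 11515 genes tested in mice 7.47% were called higher and 5.97% lower. The part of these cell types in the results below was not tested.

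In all 6 mice 4 of the 5 ileal bile acid genes lay above both duodenal iron genes, while the fifth, Fgf15, lay below Slc40a1 by CPM in every mouse. By the deposited TPM, which corrects for sequence length, Fgf15 lay above Slc40a1 in Lgr5_WT mouse 1 alone (8.91 against 3.71). Fabp6, Slc10a2 and Slc51b rose modestly in Lgr5_Rptorflfl, Fgf15 fell, and Slc51a did not pass the test. Slc40a1 did not pass either, while Muc6 and Tff2 fell. Of the 9 genes 8 passed the filter on low counts, 3 were called higher and 3 lower at an adjusted p under 0.05. Among the 11515 genes tested 7.47% were called higher and 5.97% lower. Of the 3 called lower, Muc6 and Fgf15 passed the filter through the Lgr5_WT libraries alone, so the count is no support for a direction. The median log2 difference was -0.03 over the 8 genes and -0.02 over all genes tested. In 3 of the 8 every Lgr5_Rptorflfl mouse lay above every Lgr5_WT mouse, in 2 every one lay below, and in 3 the groups overlapped. Over all genes tested the first pattern held for 15.6% and the second for 15.5%. Without Lgr5_WT mouse 3, 0 genes were called higher and 1, Muc6, lower. In bulk libraries fewer cells of a type and less RNA per cell cannot be told apart. The split of calls over all genes was 55.6% higher, against 39.6% with library sizes counted without the 10 most abundant genes and 18.1% with library sizes over the enterocyte genes alone, which moved the median of all genes to -0.20.

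**Figure D1:**
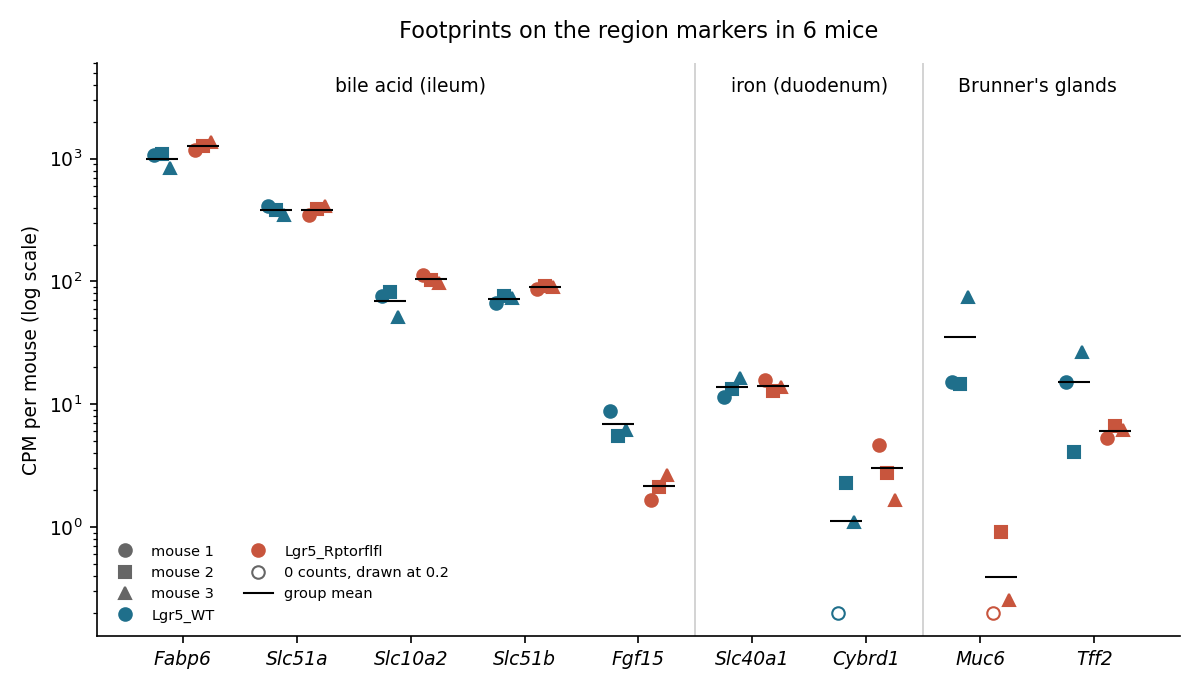
CPM (log axis) of the 9 region markers in each of the 3 Lgr5_WT and 3 Lgr5_Rptorflfl mice, with the mouse number as symbol and the group mean as a line; an open symbol stands for 0 counts. The 5 bile acid genes span 1.65 to 1373 CPM and the iron genes stay at or under 16.4 CPM in both genotypes, and Muc6 is the gene whose groups lie farthest apart.

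Fabp6 (ENSMUSG00000020405.4, mm10 chr11:43596049-43601540, minus strand) had the highest level of the 9 genes in every mouse. Its footprints were at 1079.5, 1093 and 839.65 CPM in Lgr5_WT mice 1, 2 and 3 and at 1177, 1281 and 1373 CPM in Lgr5_Rptorflfl mice 1, 2 and 3. All Lgr5_Rptorflfl mice were above all Lgr5_WT mice, and Lgr5_WT mouse 3 was the lowest. The log2 fold change was 0.35 ± 0.10 (SE, n = 3 mice per genotype, 95% interval 0.15 to 0.56) with an adjusted p of 0.0233. The call was lost when any of Lgr5_WT mouse 3 (adjusted p = 0.122), Lgr5_Rptorflfl mouse 2 (0.0805) or Lgr5_Rptorflfl mouse 3 (0.0831) was left out, and when levels were taken relative to enterocyte genes (log2 fold change 0.19, adjusted p = 0.137). With library sizes counted without the 10 most abundant genes it was just lost (adjusted p = 0.0501).

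Slc10a2 (ENSMUSG00000023073.2, chr8:5083219-5105351, minus strand), the uptake transporter, lay at 75.8, 82.2 and 51.5 CPM in the Lgr5_WT mice and at 113.0, 103.5 and 96.4 CPM in the Lgr5_Rptorflfl mice. The groups did not overlap, and Lgr5_WT mouse 3 was again the lowest. The log2 fold change was 0.65 ± 0.15 (SE), the largest rise of the 8 genes tested, with an adjusted p of 0.0073. Without Lgr5_WT mouse 3 it was 0.38 with an adjusted p of 0.0858, and relative to enterocyte genes it was 0.48 with an adjusted p of 0.0274.

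The subunits of the basolateral exporter did not move alike. Slc51a (ENSMUSG00000035699.8, chr16:32474504-32487879, minus strand) had 415, 380.3 and 350.3 CPM in Lgr5_WT and 349, 388 and 411 CPM in Lgr5_Rptorflfl. The groups covered nearly the same range. Its log2 difference was 0.02 with a 95% interval of -0.16 to 0.20 (adjusted p = 0.924). Slc51b (ENSMUSG00000053862.6, chr9:65412714-65422955, minus strand) had 67.0, 75.8 and 73.6 CPM in Lgr5_WT and 87.0, 91.6 and 89.4 CPM in Lgr5_Rptorflfl. The groups did not overlap and Slc51b rose by a log2 fold change of 0.29 ± 0.09 (SE) with an adjusted p of 0.0499, at the edge of the threshold. Only 2 of 13 alternative settings kept that call, and their adjusted p ranged from 0.0358 to 0.435. The difference between the 2 subunits' changes was not tested.

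The promoter sequences of this exporter pair are shown because both hold a hexamer, AGGTCA, that is the core half-site of nuclear receptors such as the bile acid receptor encoded by Nr1h4. The windows come from RefSeq (GRCm38.p6), run 5′ to 3′ on the gene's strand, and carry the hexamer or its reverse complement in capitals. The Slc51a window is chr16:32487920-32487949, with the hexamer ending 52 bases before the start site, which RefSeq and GENCODE place alike. The Slc51b window is chr9:65422959-65422988, with the hexamer ending 197 bases before the RefSeq start site at 65422773, or 15 bases before the GENCODE gene start at 65422955.
Slc51a: tccttctcttctTGACCTatcagggaattt
Slc51b: gtttgtcactggAGGTCAtgcattcgtggg
Promoters of 300 bases (250 before the start site and 50 after) were at hand for 6 of the 9 genes, namely Cybrd1, Muc6, Slc10a2, Slc51b, Fabp6 and Slc51a. The hexamer was found on either strand in 2 of these 6 and in 16.3% of all 32851 promoters. A match describes these letters only, not a bound site.

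Fgf15 (ENSMUSG00000031073.6, chr7:144896531-144900953, plus strand) was the bile acid gene that went the other way. It had 7, 12 and 34 counts in the Lgr5_WT mice, or 8.85, 5.48 and 6.21 CPM, and 5, 7 and 21 counts in the Lgr5_Rptorflfl mice, or 1.65, 2.13 and 2.65 CPM. Every Lgr5_Rptorflfl mouse was below every Lgr5_WT mouse, and Fgf15 passed the filter through the Lgr5_WT libraries alone. The log2 fold change was -1.46 ± 0.34 (SE) with an adjusted p of 0.00922. The call was lost without Lgr5_WT mouse 3 (log2 fold change -1.52, adjusted p = 0.0761) and in DESeq2 (-1.55, adjusted p = 0.0742). Most of the 9 genes' bile acid signal lies in Fabp6 and Slc51a, so Fgf15 hardly enters their sum.

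The iron genes were low in the mice. Slc40a1 (ENSMUSG00000025993.10, chr1:45908068-45926523, minus strand) had 11.4, 13.2 and 16.4 CPM in Lgr5_WT and 15.8, 12.8 and 13.8 CPM in Lgr5_Rptorflfl. The groups overlapped, and the log2 difference of -0.07 had a 95% interval of -0.47 to 0.33 (adjusted p = 0.862). Cybrd1 (ENSMUSG00000027015.4, chr2:71117923-71142926, plus strand) had 0, 5 and 6 counts in Lgr5_WT and 14, 9 and 13 counts in Lgr5_Rptorflfl. In CPM these were 0 to 2.28 and 1.64 to 4.61, and the 0 counts of Lgr5_WT mouse 1 allow up to 3 counts or 3.79 CPM, which spans most of that range. Cybrd1 did not pass the filter. The pooled counts, 36 against 11, gave an Lgr5_Rptorflfl over Lgr5_WT ratio of 1.94 with an exact 95% interval of 0.968 to 4.23, which covers counting error only. Without the filter the fitted log2 difference was 1.07 with an adjusted p of 0.338, so no difference was detectable at this depth.

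Of the Brunner's gland genes Muc6 separated the genotypes in every mouse and Tff2 did not. Muc6 (ENSMUSG00000048191.15, chr7:141633456-141655319, minus strand) had 12, 32 and 412 counts in the Lgr5_WT mice, or 15.2, 14.6 and 75.3 CPM. It had 0, 3 and 2 counts in the Lgr5_Rptorflfl mice, or at most 0.913 CPM, in deeper libraries than 2 of the 3 Lgr5_WT ones. All Lgr5_WT mice were above all Lgr5_Rptorflfl mice, and Lgr5_WT mouse 3 was far above the other Lgr5_WT mice. Muc6 passed the filter through the Lgr5_WT libraries alone, a choice that favours a difference, so the counts are the plainer measure. Its fitted log2 fold change was -6.83 (adjusted p = 3.08e-05), and all 13 alternative settings called it, with values from -7.65 to -5.24, the last without Lgr5_WT mouse 3. Pooled counts gave an Lgr5_WT over Lgr5_Rptorflfl ratio of 154 (exact 95% counting interval 65.3 to 475) with mouse 3 and of 42.0 (16.7 to 136) from mice 1 and 2 alone.

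Tff2 (ENSMUSG00000024028.7, chr17:31141049-31144282, minus strand), which shares the gland with Muc6, followed it in part. It had 15.2, 4.11 and 26.5 CPM in the Lgr5_WT mice and 5.27, 6.70 and 6.19 CPM in the Lgr5_Rptorflfl mice. The groups overlapped, since Lgr5_WT mouse 2 was the lowest of all 6. The log2 fold change was -1.52 ± 0.41 (SE) with an adjusted p of 0.0221. Without Lgr5_WT mouse 3 it was -0.31 with an adjusted p of 0.768, and leaving out Lgr5_Rptorflfl mouse 2 or 3 gave adjusted p of 0.0684 and 0.0689. The call was also lost in DESeq2 (-1.36, adjusted p = 0.0606). Lgr5_WT mouse 3 also had the highest count of Gkn3, a gastrokine named after its values were seen, with 43 counts (7.85 CPM) against 0 and 3 in the other Lgr5_WT mice and 2, 6 and 4 in the Lgr5_Rptorflfl mice. The 11 listed stomach genes were near 0, with sums of 0.913 to 5.11 CPM in Lgr5_WT and 1.52 to 7.91 CPM in Lgr5_Rptorflfl, and none passed the filter.

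The 14 listed genes of pancreatic acinar cells, whose gland lies against the duodenum, summed to 2797, 1771 and 4240 CPM in the Lgr5_WT mice and to 3319, 4091 and 4449 CPM in the Lgr5_Rptorflfl mice. All 14 were tested, 1 was called higher and 0 lower, beside 7.47% and 5.97% of 11515 genes tested, and their median log2 difference was 0.39. Cpb1, a carboxypeptidase, was the gene called, at a log2 fold change of 0.70 with an adjusted p of 0.0307. Lgr5_WT mouse 3, with the most Muc6, had the highest acinar sum of the Lgr5_WT mice, and Lgr5_Rptorflfl mouse 3, with 2 counts of Muc6, had the highest of all 6. Whether tissue from other organs or a different share of duodenum in each dissection had a part in the Muc6 and Tff2 differences was not tested.

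**Figure D2:**
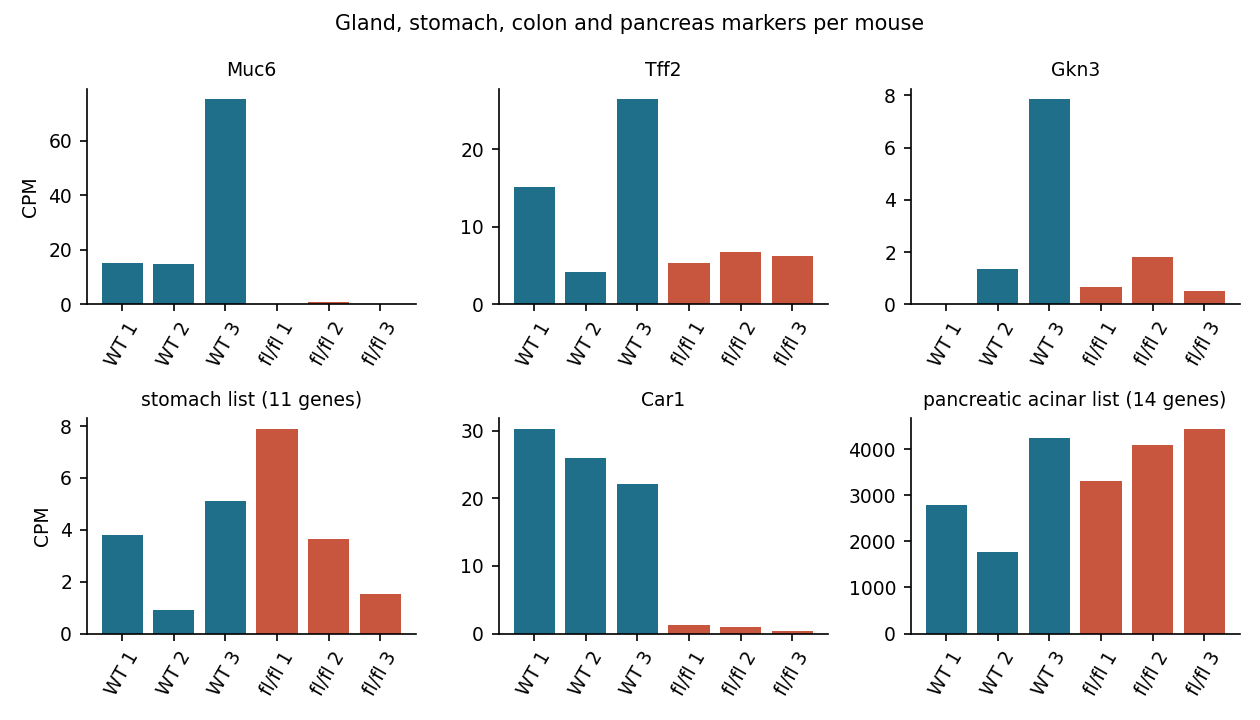
CPM per mouse (linear axes from 0) of Muc6, Tff2, Gkn3 and Car1 and the summed CPM of the 11 stomach and 14 pancreatic acinar genes, with Lgr5_WT bars in blue and Lgr5_Rptorflfl bars (fl/fl) in red. Lgr5_WT mouse 3 is the highest for Muc6, Tff2 and Gkn3, Car1 is high in all Lgr5_WT mice, and the acinar sum is high in mice of both genotypes.

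Summed over their members in CPM, the bile acid genes were higher in every Lgr5_Rptorflfl mouse, the iron genes overlapped and the gland genes were lower. The 5 bile acid genes summed to 1646, 1636 and 1321 CPM in Lgr5_WT and to 1728, 1867 and 1973 CPM in Lgr5_Rptorflfl. The iron genes summed to 11.4, 15.5 and 17.5 CPM and to 20.4, 15.5 and 15.4 CPM. These sums rest on 9, 34 and 96 counts in Lgr5_WT and on 62, 51 and 122 counts in Lgr5_Rptorflfl. The log2 ratio of bile acid to iron genes was 6.71 ± 0.47 (SD, n = 3) in Lgr5_WT and 6.77 ± 0.32 (SD, n = 3) in Lgr5_Rptorflfl, a difference of 0.06 that is smaller than either spread. With so few iron counts this ratio could miss a shift within that spread. Bile acid genes amounted to 3.17%, 3.10% and 2.66% of the summed enterocyte genes in Lgr5_WT and to 3.06%, 3.17% and 3.40% in Lgr5_Rptorflfl, with overlapping groups. On the log2 scale the share differed by 0.11, and by -0.04 when Fabp6 was left out of the sum. The Brunner's gland genes relative to enterocyte genes were at -10.38 ± 1.304 (SD, log2) in Lgr5_WT and at -13.15 ± 0.24 in Lgr5_Rptorflfl, a difference of -2.77 with no overlap. With the deposited TPM, in which the short Tff2 weighs more than the long Muc6, this difference was -1.23. The groups then overlapped, since Lgr5_WT mouse 2, at -11.1, was below every Lgr5_Rptorflfl mouse.

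**Figure D3:**
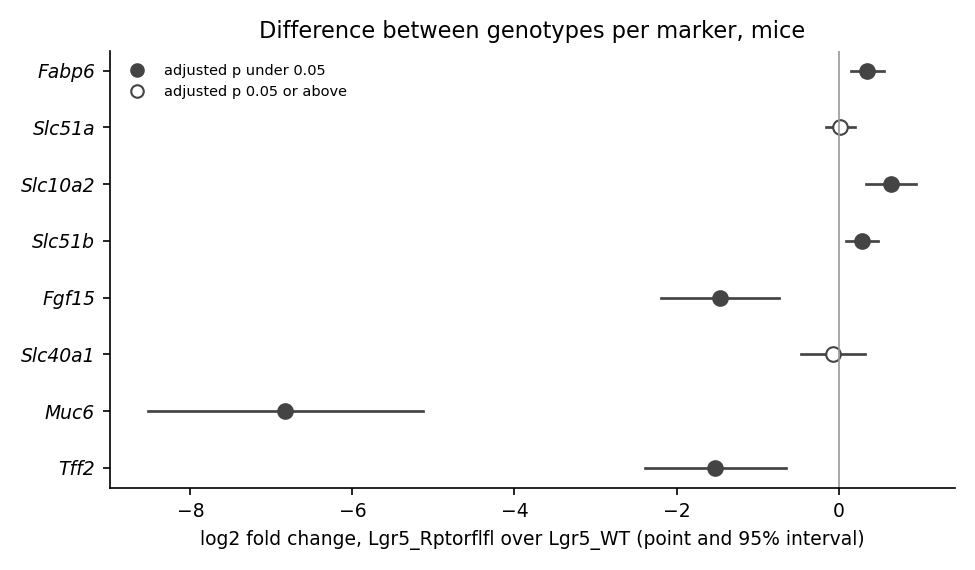
Log2 fold change of Lgr5_Rptorflfl over Lgr5_WT mice (x axis) with its 95% interval for the 8 tested markers, filled where the adjusted p was under 0.05. Fabp6, Slc10a2 and Slc51b lie to the right of 0 by at most 0.65, Slc51a and Slc40a1 sit on 0, and Fgf15, Tff2 and Muc6 lie to the left.

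Other genes of the same pathways moved in the mice as well. Of 11 further bile acid genes 8 were tested, 5 were called higher and 1 lower, beside 7.47% and 5.97% of all genes tested. Their median log2 difference was 0.28 against -0.02 over all genes tested. Cyp3a11, a bile acid hydroxylase, rose by a log2 fold change of 0.63 (adjusted p = 9.68e-05), from 738 to 1147 CPM, and Malrd1, which promotes Fgf15 production, rose by 0.44 (adjusted p = 0.00171). Abcc2, an apical export pump, fell by 0.51 on the log2 scale (adjusted p = 0.000964). Nr1h4, named after its values were seen, rose by 0.54 (adjusted p = 0.00329). Of 10 further iron genes all 10 were tested, 3 were called higher and 0 lower, with a median of 0.19. These were Fth1, the ferritin heavy chain that stores iron (log2 fold change 0.55), Hmox1, which frees iron from haem (1.07, from 5.03 to 10.8 CPM), and Heph, the oxidase that works with ferroportin (0.25). These calls were made with the main scaling. Library sizes over the enterocyte genes alone moved the median of all genes to -0.195, a shift of similar size to the rise of Heph.

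Further markers of position gave no single direction. Of 11 proximal genes 8 were tested, with 1 called higher and 2 lower and a median log2 difference of 0.10. Among all genes tested 7.47% were called higher and 5.97% lower. Gata4, the transcription factor of the proximal small intestine, fell from 104 to 81.7 CPM (log2 fold change -0.33, adjusted p = 0.0353). Gip, a hormone of duodenal K cells, fell from 95.3 to 67.7 CPM (-0.50, adjusted p = 0.00385). Apoa4, a lipid-carrying apolipoprotein, rose from 11318 to 15781 CPM (0.48, adjusted p = 0.000309), while Lct, lactase, ranged from 3116 to 3491 CPM in Lgr5_WT and from 3132.5 to 3393 CPM in Lgr5_Rptorflfl. S100g, a calcium-binding protein of duodenal enterocytes named here after its values were seen, set 1 mouse apart. It had 7.58, 7.76 and 16.8 CPM in the Lgr5_WT mice and 113, 6.09 and 3.66 CPM in the Lgr5_Rptorflfl mice (log2 difference 1.48, 95% interval -0.57 to 3.54, adjusted p = 0.354). Lgr5_Rptorflfl mouse 1, the one with high S100g, also had the highest Cybrd1 and the highest iron sum of the 6 mice. Other proximal markers did not follow: this mouse had 0 counts of Muc6, and its Gip, at 72.1 CPM, was below every Lgr5_WT mouse. It was apart for Lgr5 as well, at 45.8 CPM against 6.32 to 11.4 CPM in the others. What sets this mouse apart was not tested. Of 6 distal genes all 6 were tested, with 1 called higher and 1 lower and a median of -0.18. Slc34a2, the phosphate transporter of the ileum, rose from 324 to 788 CPM (1.27), and Cubn, the ileal vitamin B12 receptor, fell from 1039 to 874 CPM (-0.25, adjusted p = 0.02). Of 6 colon genes 2 were tested and 1 was called lower, Car1, a carbonic anhydrase of colonic epithelium and red blood cells. It had 24, 57 and 121 counts in Lgr5_WT and 4, 3 and 3 in Lgr5_Rptorflfl, or 26.2 against 0.87 CPM (-5.06). Car1 passed the filter through the Lgr5_WT libraries alone, which favours a difference, so its counts are the plainer measure.

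The genes whose log2(CPM + 0.5) was most like the mean log2 profile of the 5 bile acid genes over the 6 mouse libraries were Atp5l (Pearson r = 0.9886), Eif4a3 (0.9812), Nbeal1 (0.9762), Plekhm3 (0.9748) and Tmem186 (0.9684). For the iron genes they were Zfp207 (0.9978), Slc12a8 (0.9975), Fzd4 (0.9955), Enpp4 (0.9949) and Tbck (0.9906). These are the top of 11515 genes ranked over 6 points that share depth and tissue, and describe likeness only.

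The organoids showed the reverse order of the regions. The iron genes were high, the bile acid genes low, and Fabp6, the most abundant marker in the mice, was at or under 4 counts in every organoid library or line. For RNA of WT lines 1 and 2, Slc40a1 lay at 175 and 111 CPM and Cybrd1 at 275 and 137 CPM, against 11.2 and 8.91 CPM for Slc51a, 2.12 and 2.66 CPM for Slc10a2, and 1.85 and 1.65 CPM for Slc51b. The iron sum was 28.1 and 18.6 times the bile acid sum in the WT lines, 4.13 and 8.18 times in the Rptorflfl lines and 25.6 to 38.5 times in SCe. In footprints it was 7 to 10.7 times in the libraries labelled Rptorflfl, and 22.7 and 64.4 times in SCe libraries 1 and 3, while SCe library 2 had no bile acid count. In the mice the bile acid sum was instead 75.4 to 145 times the iron sum. Mice and organoids were scaled separately and differ in tissue and partly in assay, so these levels are set side by side without a test. The sums are in CPM, which is not corrected for sequence length. The RNA sequences of Cybrd1 (5339 bases) and Slc40a1 (3334) are longer than those of the bile acid genes except Slc10a2 (4152). Length correction therefore lowers the RNA ratios. By mean deposited TPM, Slc51a (9.17) lay above Cybrd1 (6.28) in Rptorflfl organoid RNA. Muc6 had at most 8 counts in any organoid line or library.

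**Figure D4:**
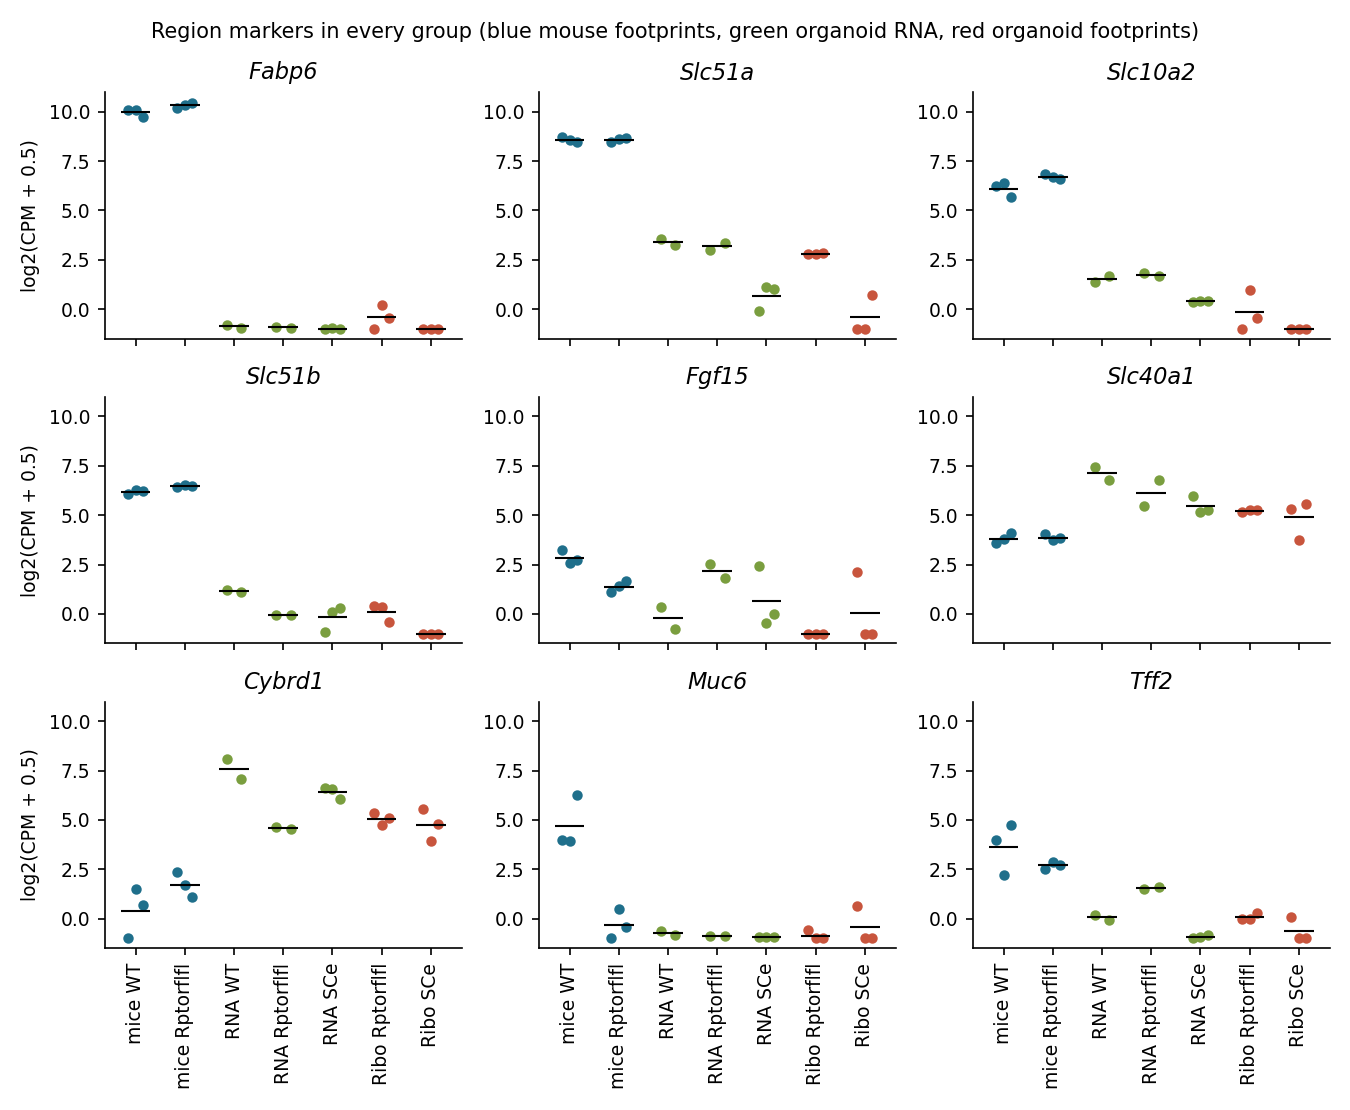
Log2(CPM + 0.5) of the 9 markers in all 7 groups, with a point for each mouse, organoid line or library and a line for the group mean; mouse footprints are blue, organoid RNA green and organoid footprints red. Fabp6, Slc51a, Slc10a2 and Slc51b are highest in the mice, and Slc40a1 and Cybrd1 are highest in the organoids.

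In organoid RNA, the Rptorflfl lines had a lower level of the iron reductase and a higher level of a gland peptide than the WT lines. By their labels the WT lines carry RPL22.HA and the Rptorflfl lines do not. The effects of Rptor, of this allele and of the lines therefore cannot be told apart. Cybrd1 fell from 275 and 137 CPM in WT to 24.3 and 23.0 CPM in the Rptorflfl lines (log2 fold change -3.12 ± 0.36 SE, adjusted p = 0.0134). Its log2 fold change was -3.54 to -2.53 in the 11 alternative settings, 1 of which took technical libraries, which are not independent, as replicates. The fit of all 3 RNA-seq groups called it as well (adjusted p = 0.0115). Slc40a1 lay at 175 and 111 CPM against 43.5 and 109 CPM (-0.91, adjusted p = 0.221), and only the line labelled Rptorflfl 1 was well below both WT lines. Tff2 rose from 0.623 and 0.464 to 2.36 and 2.48 CPM (2.15 ± 0.25 SE, adjusted p = 0.0138), which was 0.0631 with all 3 RNA-seq groups in 1 fit. Slc51b fell from 1.85 and 1.65 to 0.445 and 0.455 CPM (-1.96 ± 0.24 SE, adjusted p = 0.015), a call lost without WT line 1 (adjusted p = 0.0598) or without Rptorflfl line 1 (0.0514), and in the fit of all 3 groups (0.214). Fgf15 was at 0.774 and 0.0807 CPM in WT and reached 5.34 and 2.99 CPM in the Rptorflfl lines. These ranges did not overlap, but the WT lines differed widely and the log2 difference of 3.26 had an adjusted p of 0.057. With 1 WT line at the filter's cutoff and 2 lines needed, Fgf15 passed the filter through the Rptorflfl lines. DESeq2 called it (adjusted p = 0.000541), and the fit of all 3 RNA-seq groups did not (0.25). Slc51a (-0.20, adjusted p = 0.474) and Slc10a2 (0.27, adjusted p = 0.383) did not pass. Of the 7 genes tested 1 was called higher and 2 lower, beside 11.6% and 11% of 14131 genes. Of the 11 stomach genes 8 were tested, 4 were called higher and 0 lower, and their sums were 13.3 to 20.0 CPM in WT and 66.75 to 133 CPM in Rptorflfl.

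Stem cell enriched organoids had lower levels of most of the markers than the same WT lines, which served as controls in both RNA comparisons. Slc10a2 fell from 2.12 and 2.66 CPM to 0.803 to 0.832 CPM in the 3 SCe libraries (log2 fold change -1.53, adjusted p = 0.0078), and Slc51a from 11.2 and 8.91 to 0.435 to 1.68 CPM (-3.00, adjusted p = 0.0121). Cybrd1 fell to 67.0 to 96.7 CPM (-1.25, adjusted p = 0.0342) and Slc40a1 to 34.8 to 61.6 CPM (-1.66, adjusted p = 0.0136). Tff2 was at 0, 1 and 4 counts in SCe against 33 and 23 in the WT lines (-3.96, adjusted p = 0.0144), and passed the filter through the WT lines alone. Of the 7 genes tested 0 were called higher and 5 lower, beside 22.4% and 19.9% of 14925 genes. Most of these calls were lost when a WT line was left out. Without WT line 1 only Slc10a2 was called, with Cybrd1 at -0.67, and without WT line 2 only Cybrd1 and Slc40a1, the lone WT line being assumed to vary like SCe. Without SCe library 2 the calls were Slc10a2, Slc51a and Slc40a1, and without SCe library 3 they were Slc10a2, Slc51a and Tff2. Without SCe library 1 all 5 were called and Slc51b was added. Slc51b (-1.90, adjusted p = 0.14) and Fgf15 (2.11, adjusted p = 0.35) did not pass, and Fgf15 turned to -0.22 without SCe library 1, which had 4.92 CPM against 0.236 and 0.499 CPM in the others. The split over all genes, 53.0% higher, was 63.7% with upper-quartile scaling and 65.9% without the 10 most abundant genes, with medians of 0.13 and 0.15 in place of 0.02.

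In organoid footprints only Slc51a, Cybrd1 and Slc40a1 of the 9 genes passed the filter. Slc51a had 38, 40 and 55 counts in the libraries labelled Rptorflfl, or 6.31 to 6.70 CPM, and 0, 0 and 5 counts in SCe, so that it passed the filter through the libraries labelled Rptorflfl alone. It was called higher (log2 fold change 3.31, adjusted p = 0.0144), and the pooled counts gave a ratio of 9.51 with an exact 95% counting interval of 3.97 to 29.8. Leaving out any of the libraries labelled Rptorflfl lost the call, with adjusted p of 0.0538 to 0.0686, and without SCe library 3 the fit rose to 7.93 because no count was left in SCe. Cybrd1 lay at 26.5 to 40.7 CPM against 14.5 to 46.7 CPM in SCe, and Slc40a1 at 35.9 to 38.0 against 12.8 to 47.6 CPM. Both overlapped, with log2 differences of 0.17 (95% interval -0.65 to 0.98) and 0.09 (-0.73 to 0.91). Of the 3 genes tested 1 was called higher and 0 lower, beside 6.63% and 9.84% of 10817 genes. Slc10a2, Fabp6 and Slc51b had 0 counts in all SCe footprint libraries, of which the deepest allows a level of up to 0.694 CPM.

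The deposited TPM, which corrects for sequence length, orders the markers within a group. In Lgr5_WT mice Fabp6 was first at a mean of 2701 ± 373 TPM (SD, n = 3), followed by Slc51a (194 ± 16.2), Slc51b (104 ± 6.30) and Slc10a2 (41.3 ± 9.39), whose ranges did not touch. Tff2 (40.6 ± 29.9) could not be told from Slc10a2 by its spread, and Fgf15 (6.88), Slc40a1 (5.75), Muc6 (2.51) and Cybrd1 (0.777) formed the low end, each overlapping its neighbour. In Lgr5_Rptorflfl the first 5 places were the same genes in the same order, with Fabp6 at 3541 ± 231, Slc51a at 200.3 ± 13.7, Slc51b at 133 ± 2.94 and Slc10a2 at 63.6 ± 5.83 TPM. Muc6 moved to the last place at 0.0281 TPM. CPM per kb of full sequence, chosen after seeing the data because the deposited effective lengths shorten short genes, kept the order in Lgr5_WT and swapped Cybrd1 and Fgf15 in Lgr5_Rptorflfl. In WT organoid RNA the order was led by Slc40a1 (65.25 ± 24.1 TPM, n = 2 lines) and Cybrd1 (50.04 ± 24.2), whose ranges overlapped.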

How the data were processed

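The authors trimmed footprint reads with cutadapt 1.18, quantified all libraries with Salmon 1.1.0 on protein-coding sequences of GENCODE vM21 (mm10), and deposited estimated counts (NumReads), TPM and lengths per sequence. Mouse footprint sequences include the 5′ region. Organoid footprint files list 5′ regions as separate entries (2.97% to 6.98% of counts), which were left out. Effective lengths in the deposited files, which assume long fragments, make the TPM of short genes too high in Ribo-seq. The RiboDiff table deposited by the authors holds their own translation efficiency comparison (ratios and p-values) and was not used.

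For each gene, estimated counts were added up over its sequences and then rounded, and technical libraries of a line were summed. The test was edgeR 4.0.16 quasi-likelihood in R 4.3.3 (filterByExpr, TMM, Benjamini-Hochberg over all genes tested, two-sided, threshold 0.05), each comparison fitted on its own groups. On counts simulated from the mouse libraries it called 64% of genes changed by 1 on the log2 scale and 100% of those changed by 2, with 7.43% of calls false. The simulation gave every gene the same spread and changed only genes above a low mean count. These shares therefore do not carry over to markers with fewer counts or a wider spread, such as Cybrd1 and Muc6. DESeq2 1.42.0, other scalings, no filter, a replicate block and leaving out each mouse, line or library were alternatives. Nothing says that the 3 libraries of an organoid group came from separate animals, so their p-values may measure technical spread. Same-numbered mice did not deviate together (r = -0.00561, 0.034 and 0.0104).

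The 9 genes and the other lists were chosen with earlier results of these data known. Named genes are the 9, Rptor, in each other list at most 3 that passed the test in mice (smallest adjusted p) and at most 3 with the highest CPM, and the 5 most alike in pattern. Intervals of pooled counts and floors of 3 counts cover counting error only. A further gene of the colon list is not reported here.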

Additional observations from a re-analysis of the deposited data

Results flagged for a closer look

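Fgf15 moved in opposite directions in the 2 kinds of material: every Lgr5_Rptorflfl mouse was below every Lgr5_WT mouse in footprints (log2 difference -1.46), and both Rptorflfl organoid lines were above both WT lines in RNA (3.26, a difference that did not pass the test). Slc51b did the reverse, with 0.289 in mouse footprints and -1.96 in organoid RNA. Assay, tissue and Cre driver differ between them, and the difference between the effects was not tested.

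The entries for 5′ regions in the organoid footprint files, left out of the report, held more than 3 counts in a library for 3 of the 9 genes, with largest library values of 99.0 for Slc40a1, 15.0 for Cybrd1 and 9.0 for Slc51a. Slc51b had 1 such count. For Slc40a1, whose mRNA is known for an iron-responsive element in its 5′ region, they held 40, 75 and 99 counts in the libraries labelled Rptorflfl beside 216, 239 and 308 in the coding sequence, and 32, 1 and 25 beside 73, 15 and 206 in SCe.

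Fabp6 in RNA of Rptorflfl organoids had 1 of 4 technical libraries apart from the others by 0.866 of the range, which at 3 counts in all is a matter of single reads. Chance flags about 1 in 20 groups of this size.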

How the results depend on the processing

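Over all alternatives 231 results for single markers kept their direction and side of the threshold, 43 lost a call, 9 gained 1 and 8 changed sign, all 8 of them differences that had not passed. In mice Slc51a (0.02) turned to -0.043 without the 10 most abundant genes and to -0.15 relative to enterocyte genes, and ranged from -0.042 to 0.093 when single mice were left out, while Slc40a1 ranged from -0.14 to 0.15. With single organoid libraries left out, Fgf15 in SCe RNA ranged from -0.22 to 4.47, and in footprints Cybrd1 ranged from -0.10 to 0.58 and Slc40a1 from -0.24 to 0.43. Counts of all genes called moved more. In mice they were 1547, against 969 with DESeq2 and 897 to 1954 with a mouse left out. In Rptorflfl organoid RNA they were 3195, against 1544 with 3 groups in 1 fit, 7208 with technical libraries as replicates and 939 to 2126 with a line left out. In SCe RNA they were 6309 (2027 to 9530), and in footprints 1781 (669 to 2682). In the regional balance the bile acid share of enterocyte genes differed by 0.11 (0.034 to 0.16, and -0.040 without Fabp6), the bile acid over iron ratio by 0.06 (-0.18 to 0.29), iron over enterocyte genes by 0.05 (-0.13 to 0.21) and Brunner's gland genes by -2.77 (-3.31 to -2.04, and -1.23 with TPM). The cause of these shifts was not tested.

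No label says that samples of the same number share an animal or day. The study's methods mention paired samples, from further VillinCre.ERT2.Rptor.fl/fl animals induced in vitro, but do not say which libraries these gave. By their labels the WT RNA lines have another genotype, VillinCre.ERT2.RPL22.HA. Same-numbered samples correlated at -0.044 to 0.034 in mice and organoid footprints, and in RNA at 0.303 (Rptorflfl) and at 0.165 and 0.144 (SCe), where 2 pairs are too few to decide. With the number as a replicate block, 1305 genes were called in mice, 4751 in Rptorflfl organoid RNA, 3154 in SCe RNA and 1228 in organoid footprints. The block ended the calls of Slc51b in mice (adjusted p = 0.0718) and of Slc10a2 (0.0752) and Cybrd1 (0.073) in SCe RNA, and added Fgf15 in Rptorflfl organoid RNA (0.00634). Library sizes without acinar genes, CPM per kb and the balance without each mouse were chosen after seeing the data. Depth limits Cybrd1, Fgf15 and Muc6 in mice, which rest on 0 to 34 counts in most libraries. It also limits Slc40a1, which had 9 counts in Lgr5_WT mouse 1.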
